A study of Mus musculus with 14 samples.

Results

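The genes of the cell cycle and of proliferation were followed in dorsal horn microglia, the resident macrophages of the spinal cord, of mice with and without serum-induced arthritis. They are 53 genes listed by name for what they do in dividing cells, with no measured value in the rule, and all 53 are among the 14329 genes of the deposited values. They were put into 9 roles. These are the licensing and copying of DNA (10 genes), the G1/S cyclins (2), the supply of nucleotides (5) and chromosome structure (4). The others are mitotic cyclins and kinases (10), the spindle checkpoint and anaphase (7), the kinetochore (3), the spindle and cytokinesis (11) and the proliferation marker Mki67. Bulk RNA-seq was available for 14 libraries, each made from 2000 CD45low CD11b+ CX3CR1+ cells sorted from the dorsal lumbar spinal cord of 6-month-old mice, and the gate was set to leave out cells with Ly6C or CCR2 on their surface. The mice were C57BL/6 WT or heterozygous TASTPM, which carry human transgenes, among them APP with the Swedish mutation, under the Thy-1 promoter, which is active in neurons. Mice of either genotype received intraperitoneal serum of arthritic K/BxN mice (K/BxN ST, 4 libraries per genotype) or pooled serum of KRN/C57 mice (Control ST, 3 libraries per genotype), where ST stands for serum transfer. The study's methods count replicates as individual mice, with 3 or 4 per group, and the labels do not name the animals, so p values measure the spread between these libraries. Values are normalized counts, that is reads of a gene divided by 1 scaling factor per library, and 3 reads came to at most 3.58 normalized counts in a library.

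A cell that divides runs through a fixed sequence of gene expression. The E2F factors switch on the genes for DNA copying and nucleotide synthesis at the G1/S border, and later the MuvB complex with B-Myb and FoxM1 switches on the genes for mitosis through a short promoter element, the cell cycle genes homology region (CHR), often next to CCAAT boxes bound by NF-Y. In cells at rest the DREAM complex keeps the same promoters silent. Microglia of the healthy adult cord divide rarely and renew themselves locally, whereas classical Ly6C+ CCR2+ monocytes are made by dividing progenitors in the bone marrow and reach the tissue from the blood.

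The promoters of the members are shown first, since members of different roles differed in their levels. The letters searched were TTTGAA and TTCGAA for the CHR, TTTCGCGC, TTTGGCGC, TTTCCCGC and GGCGGGAA for E2F, and CCAAT for NF-Y, all on both strands, in the 250 bases before and 50 after each gene start of RefSeq in GRCm38.p6. A promoter was held for 43 of the 53 members. CHR letters were in 26 of these 43 (60.5%) against 21.7% of 27025 genes, E2F letters in 9 (20.9%) against 4.0%, and CCAAT letters in 34 (79.1%) against 41.1%. Of the 8 genes of DNA licensing and copying with a promoter, 6 held E2F letters and 2 held CHR letters. CHR letters were in 5 of 7 mitotic cyclins and kinases, 6 of 7 checkpoint and anaphase genes and 7 of 8 genes of the spindle and cytokinesis, and E2F letters in 1, 0 and 0 of them. The 5 genes of nucleotide supply held E2F letters in 1 and CHR letters in 0, the 3 of chromosome structure E2F letters in 1 and CHR letters in 3, and the 3 of the kinetochore E2F letters in 0 and CHR letters in 2. The letters overlap one another between motifs in Mcm7 and Cdca8, and a match of letters is a description and not a shown binding site.

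4 promoters are printed 5′ to 3′ on the strand of the gene, with the matched letters of any of these motifs in capitals, 3 of mitotic genes with CHR letters and 1 of a replication gene with E2F letters. Top2a lies at chr11:99024140-99024439 on the minus strand and holds 4 CHR and 6 CCAAT matches. Cdk1 at chr10:69352863-69353162 on the minus strand holds 2 CHR, 1 E2F and 3 CCAAT matches. Mki67 at chr7:135716330-135716629 on the minus strand holds 2 CHR and 3 CCAAT matches. Mcm5 at chr8:75109259-75109558 on the plus strand holds 2 E2F matches, which overlap each other, and 3 CCAAT matches.
Top2a: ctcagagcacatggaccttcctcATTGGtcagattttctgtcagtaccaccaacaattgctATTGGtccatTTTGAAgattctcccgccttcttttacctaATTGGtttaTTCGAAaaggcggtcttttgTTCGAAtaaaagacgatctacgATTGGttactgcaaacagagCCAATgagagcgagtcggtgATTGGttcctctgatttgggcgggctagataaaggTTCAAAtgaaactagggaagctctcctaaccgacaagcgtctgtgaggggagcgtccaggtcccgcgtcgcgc
Cdk1: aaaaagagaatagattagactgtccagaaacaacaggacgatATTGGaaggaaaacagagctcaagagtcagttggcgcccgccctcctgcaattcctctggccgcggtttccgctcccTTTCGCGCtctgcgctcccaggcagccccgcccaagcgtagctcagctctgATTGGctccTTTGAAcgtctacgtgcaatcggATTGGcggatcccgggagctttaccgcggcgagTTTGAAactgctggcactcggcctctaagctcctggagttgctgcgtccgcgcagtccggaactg
Mki67: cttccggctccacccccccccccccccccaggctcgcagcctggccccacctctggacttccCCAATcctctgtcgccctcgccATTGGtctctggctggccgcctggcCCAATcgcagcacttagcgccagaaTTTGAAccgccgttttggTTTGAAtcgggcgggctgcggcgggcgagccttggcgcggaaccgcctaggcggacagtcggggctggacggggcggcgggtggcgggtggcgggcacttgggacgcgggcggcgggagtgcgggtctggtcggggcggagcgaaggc
Mcm5: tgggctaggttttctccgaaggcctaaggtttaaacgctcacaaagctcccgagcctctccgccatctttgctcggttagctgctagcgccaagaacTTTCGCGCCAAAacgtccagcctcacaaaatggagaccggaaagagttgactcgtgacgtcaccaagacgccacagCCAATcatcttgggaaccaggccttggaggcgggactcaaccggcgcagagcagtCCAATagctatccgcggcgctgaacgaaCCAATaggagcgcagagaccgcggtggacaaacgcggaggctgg

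The 53 genes together were high in 4 libraries and low in the other 10. The summed normalized counts were 6185, 6479.8 and 6732 in WT Control ST libraries and 47077, 22090.2, 7621 and 6949 in WT K/BxN ST libraries. In TASTPM mice they were 9443, 7678 and 5466 with Control ST and 67625, 37262, 6571 and 6719 with K/BxN ST. Libraries 1 and 2 of WT K/BxN ST and libraries 1 and 2 of TASTPM K/BxN ST stood at 7.13, 3.34, 10.2 and 5.64 times the median of the 6 Control ST libraries, in that order. The other 4 K/BxN ST libraries, at 0.995 to 1.15 times that median, lay inside the range of the 6 Control ST libraries (0.827 to 1.43 times). In WT the mean was 6466 ± 274 (SD, n = 3) for Control ST and 20934 ± 18776 (n = 4) for K/BxN ST, and in TASTPM it was 7529 ± 1993 (n = 3) and 29544 ± 29203 (n = 4). The SD of each K/BxN ST group was about as large as its mean, and the groups overlapped in TASTPM. In WT the lowest K/BxN ST library (6949) lay just above the highest Control ST library (6732). As a share of all reads, the members took 0.279% and 0.133% in the high WT libraries, 0.411% and 0.224% in the high TASTPM libraries, and 0.0332 to 0.0542% in the other 10.

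The 4 libraries were also those with RNA of Ly6c2, which encodes a Ly6C surface protein of classical monocytes. Ly6c2 had 1.87, 3.35 and 1.91 normalized counts in WT Control ST libraries and 23510.2, 12898, 3.58 and 13.1 in WT K/BxN ST libraries. In TASTPM mice it had 2.09, 17.8 and 7.27 with Control ST and 29133, 15646, 12.9 and 10.2 with K/BxN ST. The lowest of the 4, WT K/BxN ST 2, was 726-fold above the highest of the other 10, and the other 2 libraries of each K/BxN ST group lay within the range of the 6 controls. These 4 are called Ly6c2-high and the other 10 Ly6c2-low. By their Ly6c2 level the 4 libraries stood in the order TASTPM 1, WT 1, TASTPM 2 and WT 2, and the summed members stood in the same order. The summed members per count of Ly6c2 were 2.32, 2.002, 2.38 and 1.71 in these 4 libraries, and the excess over the control median per count of Ly6c2 was 2.09, 1.72, 1.96 and 1.201. Among the other 10 libraries no such order was seen, since the highest sum (9443, TASTPM Control ST 1) went with 2.09 counts of Ly6c2 and the highest Ly6c2 (17.8, TASTPM Control ST 2) with a sum of 7678. All 4 high libraries had received K/BxN serum, so a high Ly6c2 level and the serum cannot be told apart across the groups. Within each K/BxN ST group the serum was the same and the levels of the members differed between the Ly6c2-high and the Ly6c2-low libraries. In WT K/BxN ST these libraries also differed in Xist, the RNA of the inactive X chromosome of females. It had 9.94 and 0 counts in the Ly6c2-high libraries and 5816 and 3247 in the Ly6c2-low ones. A high Ly6c2 level and sex can thus not be told apart within that group. In TASTPM K/BxN ST it had 12.5 and 0 against 1.17 and 3980.

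**Figure D1:**
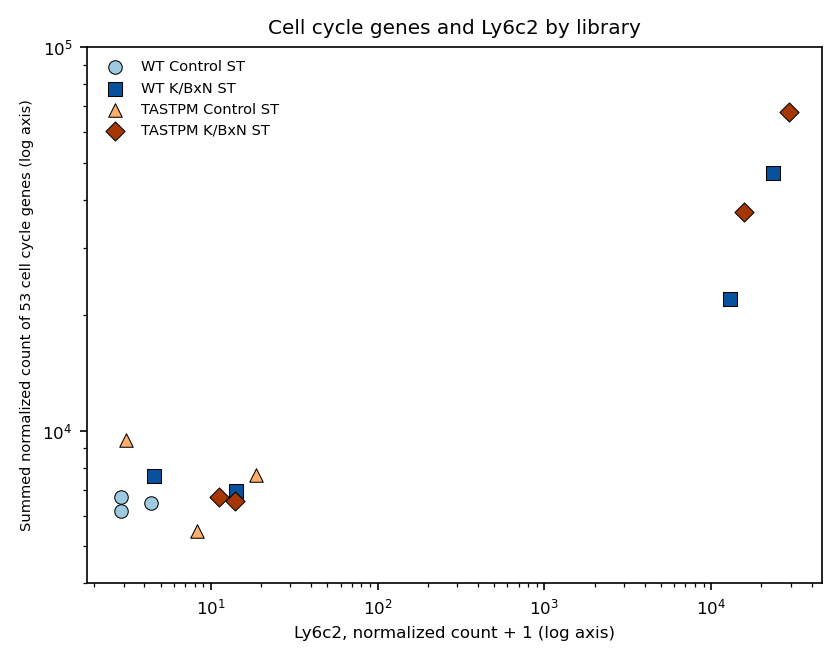
Summed normalized counts of the 53 members (y axis, log scale) against the normalized count of Ly6c2 (x axis, log scale with 1 added), with 1 point per library and 1 colour per group. The 4 points at the right, 2 of each K/BxN ST group, lie between 22090.2 and 67625 summed counts, and the other 10 lie between 5466 and 9443.

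Gene by gene, the same division held for most members. For 41 of the 53 the 4 highest libraries were the 4 with the highest Ly6c2, against 8.56% of all genes, and for 23 the 4 also stood in the order of Ly6c2, against 2.33% of all genes. By role, these 41 were all 10 mitotic cyclins and kinases, all 7 checkpoint and anaphase genes, all 3 kinetochore genes, 10 of 11 genes of the spindle and cytokinesis and Mki67. They were also 3 of 4 genes of chromosome structure, 4 of 5 genes of nucleotide supply and 3 of 10 genes of DNA licensing and copying, and neither G1/S cyclin. The 12 others were Mcm3, Mcm4, Mcm6, Mcm7, Cdt1, Gins2, Uhrf1, Ccne1, Ccne2, Tyms, Smc2 and Anln, and all of them but Ccne1 shared 3 of their 4 highest libraries with Ly6c2. The median difference between the 4 libraries and the other 10, as a log2 ratio of medians with 1 added, was 5.19 over the 53 members, with a range of 0.60 to 9.86. It was 1.58 for DNA licensing and copying, 2.71 for nucleotide supply, 2.81 for chromosome structure, 3.94 for the G1/S cyclins and 4.26 for the kinetochore. It was 7.06 for mitotic cyclins and kinases, 7.83 for the spindle and cytokinesis, 8.35 for Mki67 and 9.19 for the checkpoint and anaphase.

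**Figure D2:**
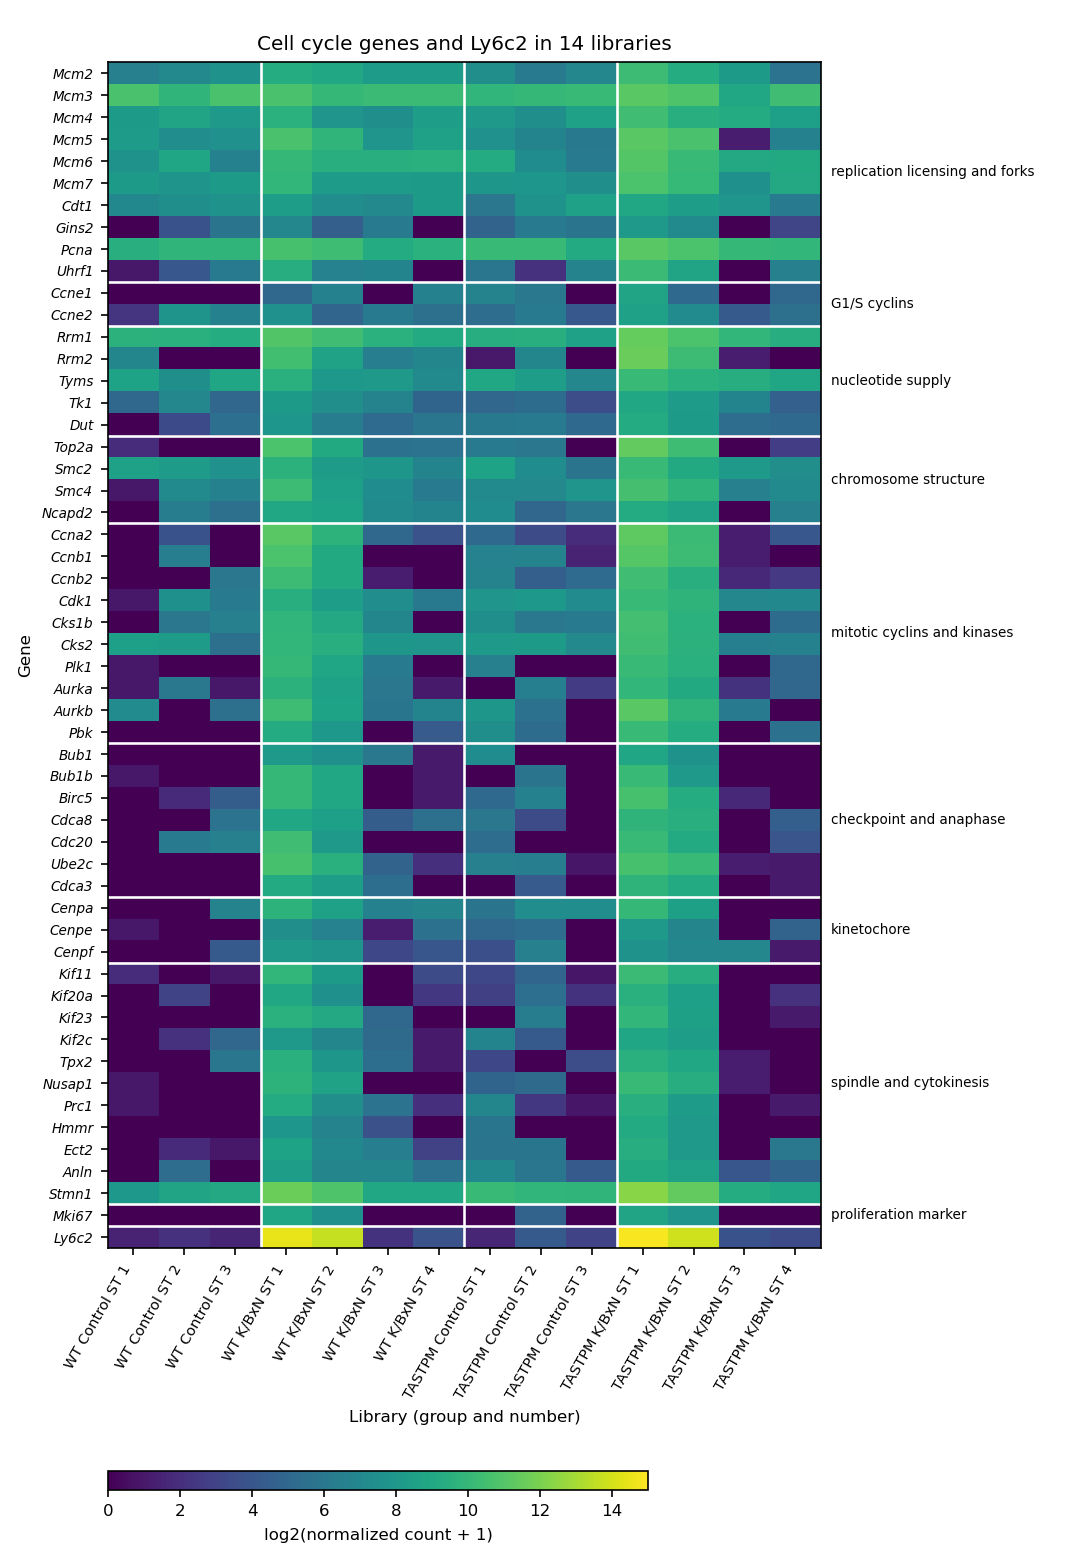
Level of each of the 53 members (rows, grouped by role) in each of the 14 libraries (columns, by group), as the log2 of the normalized count with 1 added (colour scale). Libraries 1 and 2 of either K/BxN ST group are filled from top to bottom, with all 53 members over 3 reads, while the other 10 columns hold between 17 and 47 such members.

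The genes that license and copy DNA made up the largest share of the members' counts outside the 4 libraries. In the 10 other libraries they made up 39.4 to 62.2% of the summed members (median 54.7%), and in the 4 libraries 19.99 to 26.1%, although their sum was higher there as well, at 3072 to 4320 in the 10 and at 9410.2 and 5168 in the 2 high WT libraries and 15209 and 9729 in the 2 high TASTPM libraries. Pcna, the sliding clamp of the DNA polymerases, had 705, 912 and 893 normalized counts in WT Control ST libraries and 1613, 1303, 598 and 776 in WT K/BxN ST libraries. TASTPM libraries held 1151, 1116 and 566 under Control ST and 2328, 1719, 1019.7 and 975 under K/BxN ST. The 4 Ly6c2-high libraries were its 4 highest, and the lowest of them lay only 1.13-fold above the highest of the other 10. Mcm3, a subunit of the MCM helicase that opens DNA at origins, had 1636, 906 and 1636 normalized counts in WT Control ST libraries and 1682, 999, 1196 and 1197 in WT K/BxN ST libraries. The TASTPM values were 956, 1005 and 1156 after Control ST and 2283, 1887, 502 and 1338 after K/BxN ST. Its groups overlapped throughout, and 2 WT Control ST libraries lay close to the highest of WT K/BxN ST. Mcm4, another subunit of that helicase, had 289, 437 and 262 in WT Control ST libraries and 759.6, 221, 177 and 333 in WT K/BxN ST libraries. Its 4 highest libraries included TASTPM K/BxN ST 3 (592), which held 12.9 counts of Ly6c2.

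Of the other subunits of the same helicase, Mcm2 and Mcm5 had their 4 highest values in the Ly6c2-high libraries, and Mcm6 and Mcm7 did not. Mcm2 had 90.0, 132 and 211 normalized counts in WT Control ST libraries and 616, 488, 299 and 316 in WT K/BxN ST libraries. Among TASTPM mice the counts were 172, 67.7 and 124 with Control ST and 1252, 634, 290.2 and 51.9 with K/BxN ST. All 4 WT K/BxN ST libraries lay above the 3 WT Control ST libraries, including the 2 that were Ly6c2-low, whereas in TASTPM the groups overlapped. Mcm5, whose promoter is printed above, had 301, 165 and 195 normalized counts in WT Control ST libraries and 1653, 892, 229 and 384 in WT K/BxN ST libraries. For TASTPM, the Control ST libraries had 195, 108 and 67.2 and the K/BxN ST libraries 2312, 1679.8, 1.17 and 97.0. Its 4 highest libraries were the Ly6c2-high ones, and TASTPM K/BxN ST 3 was the lowest of all 14 with 1.17 counts, the value of 1 read. Mcm6 had 209, 469 and 95.5 normalized counts in WT Control ST libraries and 1004, 682, 677 and 743 in WT K/BxN ST libraries. In TASTPM mice it had 597, 153 and 69.1 with Control ST and 2022, 1144, 539 and 549 with K/BxN ST. Its WT groups did not overlap, and the Ly6c2-low WT K/BxN ST 4 lay above the Ly6c2-high WT K/BxN ST 2. Gins2, a part of the helicase at moving forks, was uneven within groups. It had 0, 12.6 and 54.4 normalized counts in WT Control ST libraries and 123, 22.1, 71.7 and 0 in WT K/BxN ST libraries. TASTPM libraries held 26.1, 74.4 and 53.6 under Control ST and 262, 138, 0 and 7.90 under K/BxN ST.

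Within nucleotide supply the members differed from one another. Tyms, thymidylate synthase, was present in every library. It had 417, 179 and 462 normalized counts in WT Control ST libraries and 732, 252, 263 and 139.6 in WT K/BxN ST libraries. The TASTPM values were 516, 339.7 and 119.9 after Control ST and 1098, 751, 656 and 457 after K/BxN ST. Its groups overlapped in both genotypes, and TASTPM K/BxN ST 3, which is Ly6c2-low, held more of it than WT K/BxN ST 2 and all 6 controls. Rrm2, the subunit that sets the activity of ribonucleotide reductase in S phase, had 117, 0 and 0 normalized counts in WT Control ST libraries and 1412, 398, 83.6 and 119 in WT K/BxN ST libraries. Among TASTPM mice the counts were 1.04, 115 and 0 with Control ST and 3052, 1256, 1.17 and 0 with K/BxN ST. It was high in the 4 libraries, at 119 or less in the others and without reads in 4 of them. Tk1, the thymidine kinase of the salvage pathway, had 31.9, 119.9 and 29.6 normalized counts in WT Control ST libraries and 285, 170.0, 103.9 and 27.3 in WT K/BxN ST libraries. For TASTPM, the Control ST libraries had 30.3, 38.9 and 10.9 and the K/BxN ST libraries 492, 303, 107 and 23.7. Tyms and Pcna have named pseudogenes, as have Ccnb1 and Ccnb2, so reads could have been split or lost between copies and their levels are uncertain.

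Most genes of mitosis had few reads in the 10 libraries and more in the 4, although Cks2, Cdk1 and Stmn1 kept medians of 236, 140.2 and 527 counts in the 10. The mitotic cyclins and kinases summed to 290 to 1425 in the 10 libraries and to 11695 and 4969 in the 2 high WT libraries and 15388 and 8278 in the 2 high TASTPM libraries. Ccna2, cyclin A2, which acts in S phase and at the entry into mitosis, had 0, 12.6 and 0 normalized counts in WT Control ST libraries and 2337, 817, 32.3 and 13.1 in WT K/BxN ST libraries. In TASTPM mice it had 34.5, 9.99 and 2.73 with Control ST and 2459, 1206, 1.17 and 15.8 with K/BxN ST. The lowest of the 4 libraries lay 23.7-fold above the highest of the other 10. Ccnb1, cyclin B1, the partner of Cdk1 in mitosis, had 0, 85.5 and 0 normalized counts in WT Control ST libraries and 1721, 549, 0 and 0 in WT K/BxN ST libraries. TASTPM libraries held 99.2, 103 and 1.82 under Control ST and 2102, 1225, 1.17 and 0 under K/BxN ST. It was without reads in 5 of the 10 libraries, at no more than 1.82 counts in 2 others and between 85.5 and 103 in the remaining 3. Cdk1, the kinase that drives mitosis, had 0.937, 187 and 71.6 normalized counts in WT Control ST libraries and 712, 325, 165 and 66.5 in WT K/BxN ST libraries. The TASTPM values were 227, 253 and 152 after Control ST and 1119.9, 847, 122 and 129 after K/BxN ST. It had reads in all 14 libraries, and its exons overlap those of Ank3 in part, so reads of these 2 genes cannot be told apart there.

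Plk1 and Aurka, kinases of spindle assembly, and Cdc20, the activator of the anaphase-promoting complex, also had their 4 highest levels in the Ly6c2-high libraries. Plk1 had 0.937, 0 and 0 normalized counts in WT Control ST libraries and 1011, 445, 68.1 and 0 in WT K/BxN ST libraries. Among TASTPM mice the counts were 91.9, 0 and 0 with Control ST and 1105, 723, 0 and 31.6 with K/BxN ST. It had at most 1 read in 7 of the 10 Ly6c2-low libraries. Aurka had 0.937, 62.9 and 0.955 normalized counts in WT Control ST libraries and 808, 379, 60.9 and 1.09 in WT K/BxN ST libraries. For TASTPM, the Control ST libraries had 0, 88.8 and 5.45 and the K/BxN ST libraries 989, 544, 3.52 and 30.5. Cdc20 reached 1337 and 274 in the 2 high WT libraries and 1150.1 and 575 in the 2 high TASTPM libraries, and the highest of the other 10 libraries held 90.7. Of the checkpoint and anaphase genes as a whole, the 10 libraries summed to 0.909 to 381 counts, and the 4 to between 2897 and 7647.

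Ube2c, the ubiquitin-conjugating enzyme of the anaphase-promoting complex, had 0, 0 and 0 normalized counts in WT Control ST libraries and 1576, 736, 26.3 and 3.27 in WT K/BxN ST libraries. In TASTPM mice it had 90.9, 83.3 and 0.909 with Control ST and 1595, 1082, 1.17 and 1.13 with K/BxN ST. All 3 WT Control ST libraries were at 0 and the 2 Ly6c2-low WT K/BxN ST libraries at 26.3 and 3.27, the latter the value of 3 reads. Against the 3 reads that a library at 0 allows, the mean of WT K/BxN ST was at least 163-fold higher, and at least 71.2-fold higher without WT K/BxN ST 1. Birc5 (survivin), which with Aurora B corrects the attachment of chromosomes, had 0, 2.51 and 20.1 normalized counts in WT Control ST libraries and 1008, 517, 0 and 1.09 in WT K/BxN ST libraries. TASTPM libraries held 34.5, 95.5 and 0 under Control ST and 1609, 618, 2.35 and 0 under K/BxN ST. In 4 of the 10 libraries it had no reads. Cenpa, the histone of the centromere, had 0, 0 and 104.1 normalized counts in WT Control ST libraries and 845, 389, 96.8 and 112 in WT K/BxN ST libraries. The TASTPM values were 53.3, 162 and 163 after Control ST and 1033, 369, 0 and 0 after K/BxN ST. The Ly6c2-low libraries split by group, since the 2 of WT K/BxN ST and all 3 of TASTPM Control ST held reads, while the 2 of TASTPM K/BxN ST and 2 of 3 WT Control ST held none.

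Among genes of chromosome structure and of the spindle, Top2a, the topoisomerase that untangles sister chromosomes, had 2.81, 0 and 0 normalized counts in WT Control ST libraries and 1706, 548, 47.8 and 51.2 in WT K/BxN ST libraries. Among TASTPM mice the counts were 72.1, 61.1 and 0 with Control ST and 2679, 1296, 0 and 5.64 with K/BxN ST. The 4 WT K/BxN ST libraries did not overlap the 3 WT Control ST libraries, with 47.8 and 51.2 in the 2 that were Ly6c2-low. Stmn1, which destabilizes microtubules, had 252, 424 and 538 normalized counts in WT Control ST libraries and 3119.9, 1879, 517 and 494 in WT K/BxN ST libraries. For TASTPM, the Control ST libraries had 1097, 935 and 883 and the K/BxN ST libraries 5083, 2688, 629 and 475. It was seen well in all 14 libraries, and the 3 TASTPM Control ST libraries lay above the 3 WT Control ST libraries. Smc2, a condensin subunit, had 389.9, 298 and 195 normalized counts in WT Control ST libraries and 783, 295, 245 and 107 in WT K/BxN ST libraries. In TASTPM mice it had 423, 153 and 53.6 with Control ST and 1097, 546, 273 and 170.4 with K/BxN ST. Its groups overlapped in both genotypes. Pbk, a mitotic kinase, had 0, 0 and 0 normalized counts in WT Control ST libraries and 609, 255, 0 and 18.5 in WT K/BxN ST libraries. TASTPM libraries held 177, 37.7 and 0 under Control ST and 1145, 631, 0 and 48.5 under K/BxN ST. It was absent from all 3 WT controls and from 1 library of each other group. Anln, anillin of the contractile ring, had 0, 40.2 and 0 normalized counts in WT Control ST libraries and 343, 113, 119 and 50.2 in WT K/BxN ST libraries. The TASTPM values were 129.5, 58.8 and 18.2 after Control ST and 549, 378, 15.3 and 27.1 after K/BxN ST. Its WT groups did not overlap, while TASTPM Control ST 1 lay above WT K/BxN ST 2.

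Mki67, the gene of the Ki-67 protein that coats mitotic chromosomes and serves as the usual stain of cycling cells, had 0, 0 and 0 normalized counts in WT Control ST libraries and 444, 184, 0 and 0 in WT K/BxN ST libraries. Among TASTPM mice the counts were 0, 26.6 and 0 with Control ST and 428, 224, 0 and 0 with K/BxN ST. It was present in the 4 libraries, at a low level in TASTPM Control ST 2 and without a read in the other 9. Against the 3 reads that a library at 0 allows, the mean of WT K/BxN ST was at least 43.8-fold higher than WT Control ST, and at least 17.1-fold higher without WT K/BxN ST 1. In GRCm39, Mki67 spans bases 135291513 to 135318299 of chromosome 7, Top2a 98883769 to 98915062 of chromosome 11, Cdk1 69170976 to 69236595 of chromosome 10 and Mcm5 75836140 to 75856231 of chromosome 8. Together with Bub1, Bub1b, Cdca3, Hmmr, Kif11, Kif20a, Kif23, Nusap1 and Prc1, Mki67 was 1 of 10 members that had fewer than 10 reads in more than 7 libraries and were tested only in the fit without this filter.

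**Figure D3:**
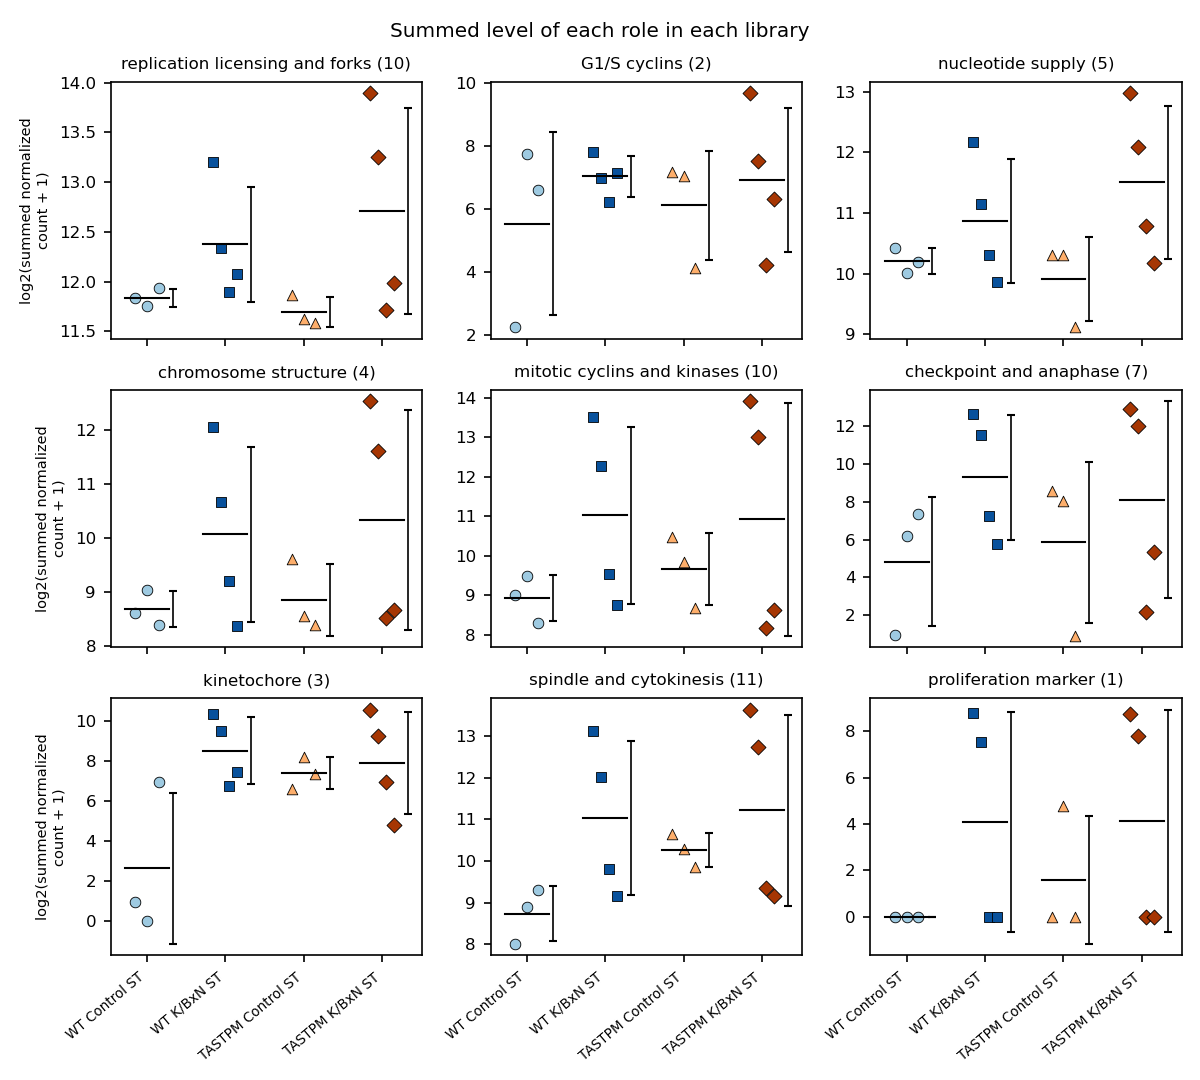
Summed normalized counts of the members of each role (panels, log scale with 1 added) in each library (points), by group. In all panels but that of the G1/S cyclins the 4 Ly6c2-high libraries lie above the other 10, and the gap is smallest for DNA licensing and copying.

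Per kb of exon, which allows genes to be compared with one another, the most abundant members of the 10 libraries were Pcna with a median of 376 normalized counts per kb, Cks2, a Cdk-binding subunit, with 216 and Mcm3 with 188, while Top2a stood at 0.464 and Mki67 at 0. In the 4 libraries the median was 815 for Cks2, 713 for Cks1b, 694 for Pcna, 578 for Stmn1 and 165 for Top2a. The order among members thus changed from one led by Pcna to one in which Cks2 and Cks1b were level with it or above it. Exon lengths are from an annotation later than that used for the counts, and the libraries carry no strand, so reads of the 26 members whose exons share positions with another annotated gene cannot be told apart from reads of that gene.

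For the effect of K/BxN serum in WT mice, no member passed the test in limma. Of the 43 members with at least 10 reads in at least 7 libraries, 0 were called at an adjusted p below 0.05 with a log2 fold change beyond 1, where 0.00791% of all tested genes were called, and the smallest adjusted p of a member was 0.477 (Anln). At an unadjusted p below 0.05, with all 53 members and no filter, 20 were higher (background 5.01% of 14329 genes) and 0 lower (background 2.21%). 49 of their fold changes were positive, and the median log2 fold change was 3.64, against 0.09 over all genes. With the filter 16 of 43 were higher at that level (background 4.77%), and this count fell to 4, 7, 6 and 10 (backgrounds 3.2%, 3.4%, 3.84% and 5.7%) when WT K/BxN ST 1, WT K/BxN ST 2, WT Control ST 1 or WT Control ST 2 was left out. edgeR called 0 of 43 as well, with 11 higher at an unadjusted p below 0.05 (background 4.18%). DESeq2 without the filter called 10 of 53 higher, where it called 1.82% of all genes higher, and 7 of 43 with the filter, where it called 0.933%. The 10 were Ube2c, Ccne1, Hmmr, Top2a, Pbk, Bub1, Ect2, Ccna2, Prc1 and Cenpe, of which Ube2c, Ccne1, Hmmr, Pbk and Bub1 were at 0 in all 3 WT Control ST libraries. 12 members were higher in all 4 WT K/BxN ST libraries than in all 3 WT Control ST libraries, where 3.75% of all genes were. These were Mcm2, Mcm6, Mcm7, Top2a, Ncapd2, Ccna2, Bub1, Ube2c, Cenpe, Prc1, Ect2 and Anln. In Bub1 and Cenpe the lowest WT K/BxN ST library held 1 read, and in Ube2c and Prc1 3 reads, so that these 4 separated by no more than the 3 reads a library at 0 allows. In Ccna2 the lowest WT K/BxN ST library (13.1) and the highest WT Control ST library (12.6) differed by less than the value of 1 read, and in Mcm7 they stood at 289 and 285.

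Single fold changes were large and their errors too. In limma the log2 fold change of WT K/BxN ST against WT Control ST was 7.15 (standard error 2.45, adjusted p = 0.605) for Top2a, 6.75 (standard error 2.56, adjusted p = 0.668) for Ube2c and 6.18 (standard error 2.30, adjusted p = 0.662) for Ccna2. Tyms, Mcm3 and Mcm4 gave -0.18 (standard error 0.58, adjusted p = 0.947), -0.11 (standard error 0.41, adjusted p = 0.959) and -0.02 (standard error 0.52, adjusted p = 0.994). In the two-sided exact permutation test of 4 against 3 libraries, whose smallest possible p is 0.029, Top2a reached 0.029, Ccna2 0.0571, and Mcm2 0.029. Mki67 gave 0.429, Ccnb1 0.543, and Cdk1 0.2 in this exact permutation test, Birc5 0.4, Rrm2 0.0571, Stmn1 0.2, Pcna 0.543, Mcm5 0.143 and Tyms 0.8. Ly6c2 itself gave 0.171 in that test and a limma log2 fold change of 6.82 (standard error 3.15, adjusted p = 0.696).

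In TASTPM mice no member passed the test in limma either. limma called 0 of 43, as it called 0.0% of all tested genes, and the smallest adjusted p was 0.964. Over all 53 members without the filter 6 were higher at an unadjusted p below 0.05 (background 2.72%) and 0 lower (background 1.57%). 50 of their fold changes were positive and the median log2 fold change was 1.49 in limma and 2.56 in DESeq2, where those in WT were 3.64 and 3.54. By role the limma medians were 0.99 in TASTPM and 0.93 in WT for DNA licensing and copying, and 1.39 and 3.39 for mitotic cyclins and kinases. The DESeq2 medians without the filter were 1.69 in TASTPM and 1.06 in WT for the first role, and 3.13 and 4.09 for the second. The 6 were Mcm4, Mcm6, Mcm7, Tk1, Tyms and Rrm1, that is 3 genes of DNA copying and 3 of nucleotide supply. Leaving out 1 library changed the number with the filter, also 6, to 1 without K/BxN ST 1 (background 1.6%), 2 without K/BxN ST 2 (background 1.88%), 13 without K/BxN ST 3 (background 3.31%) or 2 without Control ST 3 (background 2.7%). edgeR called 0 with 9 of 43 higher at an unadjusted p below 0.05 (background 2.7%), and DESeq2 without the filter called 0 where it called 0.586% of all genes higher, with 11 of 53 members higher at an unadjusted p below 0.05 (background 5.19%). These 11 were 5 genes of DNA copying, 3 of nucleotide supply, 1 mitotic cyclin or kinase and 2 of the spindle and cytokinesis. In 0 members did the 4 K/BxN ST libraries lie above the 3 Control ST libraries, where 2.61% of all genes did.

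The largest log2 fold changes in TASTPM were 4.04 (standard error 2.91, adjusted p = 0.964) for Cdc20, 3.98 (standard error 2.58, adjusted p = 0.964) for Plk1 and 3.49 (standard error 2.29, adjusted p = 0.964) for Aurka. Those of Cenpa, Gins2 and Cks1b were negative in limma, at -2.19 (standard error 2.30, adjusted p = 0.964), -1.01 (standard error 1.996, adjusted p = 0.969) and -0.23 (standard error 2.55, adjusted p = 0.994), and positive in edgeR and DESeq2. In the exact permutation test Mki67 reached 0.543, Top2a 0.6, Ccna2 0.371, Tyms 0.0857 and Ly6c2 0.229.

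**Figure D4:**
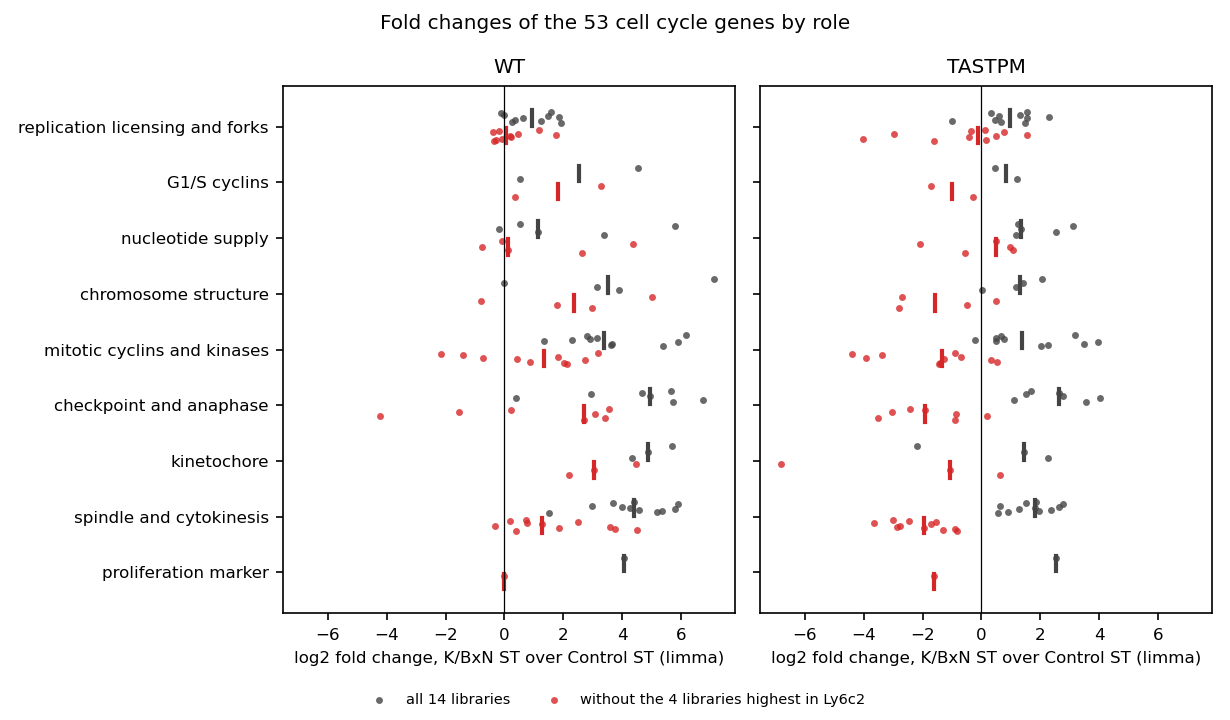
Log2 fold change of each member for the effect of K/BxN serum in each genotype (limma without the filter on low counts), with members grouped by role on the other axis and 1 point per gene. The medians over all 53 members are 3.64 in WT and 1.49 in TASTPM with all 14 libraries, and 0.87 and -1.31 without the 4. No point of either colour passed the test after adjustment.

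The difference between the genotypes in the effect of serum was itself tested as an interaction. limma called 0 of 43 members (0.0% of all tested genes), and with all 53 members 0 were higher (background 1.35%) and 1 lower (background 1.72%) in TASTPM at an unadjusted p below 0.05. That gene was Cenpa, with a log2 difference of -7.89 (standard error 3.25, adjusted p = 0.999). Of the tested members the highest log2 interaction terms in limma were those of Cdc20 (3.64 ± 4.12), Tyms (1.53 ± 0.82) and Smc2 (1.44 ± 1.09), and the lowest those of Cenpa (-7.89 ± 3.25), Ube2c (-5.64 ± 3.63) and Top2a (-5.08 ± 3.46), given with their standard errors. The median over the 53 members was -2.16 in limma and -0.70 in DESeq2, and over the 43 members with the filter it was -1.93 in limma, -0.29 in edgeR and -0.28 in DESeq2. edgeR called 0 with 1 lower at an unadjusted p below 0.05 (background 1.53%), and DESeq2 without the filter called Bub1 lower (1 of 53, against 0.154% of all genes called lower). That call rests on TASTPM Control ST 1, which held 155 counts of Bub1, while the other 5 Control ST libraries were at 0.

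Without serum from K/BxN mice, TASTPM and WT were compared directly. limma called 0 of 43 members between the Control ST groups (0.0% of all tested genes), and with all 53 members 1 (Anln) was higher in TASTPM (background 3.34%) and 0 lower (background 2.0%) at an unadjusted p below 0.05, with a median log2 difference of 1.84. With the filter those higher were Anln and Dut (2 of 43, background 3.41%), edgeR called 0 with 4 of 43 higher at an unadjusted p below 0.05 (background 2.73%), and DESeq2 without the filter called Hmmr and Bub1 higher (2 of 53, against 0.44% of all genes). Both calls rest on TASTPM Control ST 1, with 55.4 and 155 counts, since the other 5 Control ST libraries were at 0 for both genes. 2 members, Ube2c and Stmn1, were higher in all 3 TASTPM Control ST libraries than in all 3 WT Control ST libraries, where 4.94% of all genes were, and the two-sided exact permutation test of 3 against 3 cannot go below 0.10. The separation of Ube2c rested on 1 read, since it was at 0 in all WT Control ST libraries and at 0.909, the value of 1 read, in TASTPM Control ST 3. Against the 3 reads allowed in WT the mean of TASTPM was at least 16.3-fold higher, which TASTPM Control ST 1 and 2 carried, with 90.9 and 83.3, while TASTPM Control ST 3 lay below those 3 reads. Of the tested members the highest log2 differences in limma were those of Ube2c (4.62 ± 2.74), Cenpa (4.58 ± 2.46) and Pbk (4.25 ± 2.68), and the lowest those of Cdc20 (-2.43 ± 3.11), Tk1 (-1.01 ± 1.10) and Mcm5 (-0.92 ± 1.83), given with their standard errors.

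Between the K/BxN ST groups limma called 0 of 43 members (0.0% of all tested genes). With all 53 members 2 were higher in TASTPM (Mcm4 and Tyms, background 1.05%) and 0 lower (background 0.998%) at an unadjusted p below 0.05. The median log2 difference was 0.06 in limma, with 27 of 53 positive, and 0.51 in DESeq2 without the filter, with 49 of 53 positive. edgeR and DESeq2 called 0 in this comparison, with 0 of 43 (edgeR, background 0.783%) and 1 of 53 (DESeq2 without the filter, background 1.15%) higher at an unadjusted p below 0.05, and in 0 members did the groups separate, where 1.08% of all genes were higher in TASTPM without overlap. Of the tested members the highest log2 fold changes of TASTPM K/BxN ST against WT K/BxN ST were those of Tyms (1.29 ± 0.54), Cdc20 (1.20 ± 2.70) and Mcm4 (1.07 ± 0.48), and the lowest those of Cenpa (-3.31 ± 2.13), Rrm2 (-2.35 ± 2.53) and Mcm5 (-1.83 ± 1.59), given with their standard errors.

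The comparisons were then made without the 4 Ly6c2-high libraries, which left 2 K/BxN ST libraries in each genotype against the same 3 controls, a choice made after seeing the data. In WT 3 of the 53 members (Top2a, Cenpa and Anln) were higher at an unadjusted p below 0.05 (background 2.83%), 38 fold changes were positive and the median log2 fold change was 0.87. In TASTPM 0 were higher and 2 (Stmn1 and Cenpa) lower (background 2.25%), 13 were positive and the median was -1.31. The direction of the median in TASTPM thus turned when the 2 Ly6c2-high libraries were left out. The 4 libraries left out also held the 4 highest sums of the members, so a lower median followed from that choice. These fits therefore cannot decide what set the level of the members. Between the Control ST groups, whose libraries stayed the same, 5 members (Ube2c, Nusap1, Stmn1, Cenpa and Anln) were higher in TASTPM (background 3.55%) with a median of 1.84. With log2 Ly6c2 as a covariate and all 14 libraries, the median over the 43 members was -0.04 in WT and -0.61 in TASTPM. With the mean log2 level of the monocyte markers as a covariate it was 0.18 and -0.27. With Ly6c2, 1 member was higher (background 3.79%) and 1 lower (background 2.96%) in WT at an unadjusted p below 0.05, and 1 was higher (background 2.42%) and 5 lower (background 2.38%) in TASTPM.

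Markers of other cell types differed between the same libraries. Of 10 monocyte markers all 10 were higher in each of the 4 libraries than in each of the other 10, with sums of 104955 to 205258 against 226 to 1166. Ccr2, the receptor that brings monocytes out of the marrow, stood at 8537 to 27035 against 3.13 to 86.0. Of 10 microglia markers 8 were lower in each of the 4 libraries, with sums of 258253 to 630044 against 746793 to 1050014, so that microglial RNA was present in all 14. Fewer cells of a type and less RNA per cell cannot be told apart in such bulk libraries. Neutrophil markers summed to 194846, 197977 and 218835 in 3 of the 4 libraries and to 10337 in WT K/BxN ST 2, inside the 4060 to 11934 of the other 10. Of the 10 neutrophil markers 2, Camp and Mmp8, were higher in each of the 4 libraries than in each of the 10, with 23.0 and 3245 in WT K/BxN ST 2 against at most 9.40 and 59.97, and in that library Ly6g was at 0 and Cxcr2 at 0.886, the value of 1 read. Of 6 markers of bone marrow progenitors 2 were measured, and they differed in opposite directions. Prtn3, a protease of granulocyte and monocyte precursors, was at 5867 and 4817 in the 2 high TASTPM libraries and 1322 and 562 in the 2 high WT libraries, against 0 to 52.2 in the other 10. Cd34 was lower in each of the 4 libraries (4852 to 10214) than in each of the 10 (11188 to 16914), and Elane, Mpo, Ctsg and Kit were not analysed here. Border macrophage markers summed to 1226 to 3343 against 0 to 947, with 3 of 6 higher in each of the 4 libraries. Of the measured markers of B cells (2), red cells (5), oligodendrocyte precursors (1), oligodendrocytes (3) and astrocytes (4), 0 were higher in each of the 4 libraries than in each of the 10. Of endothelial markers 1 of 2 was, and T cell markers were not analysed here. The part of each of these cell types in the level of the members was not tested.

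Among the 10 Ly6c2-low libraries, the number of members seen varied with Xist, the RNA of the inactive X chromosome of females. The 6 libraries with 1706 to 5816 counts of Xist had 31 to 47 members over 3 reads and sums of 6719 to 9443, and the 4 with 1.17 to 202 counts had 17 to 29 members over 3 reads and sums of 5466 to 6571. The 4 Ly6c2-high libraries held 0 to 12.5 counts of Xist and all 53 members. In WT K/BxN ST the Ly6c2-low libraries held 5816 and 3247, so a low Xist level and a high Ly6c2 level cannot be told apart within that group. The labels give no sex, the study's methods name males and females in equal number, and WT Control ST 3 held both Xist (1706) and the Y-linked Ddx3y (236), as did TASTPM Control ST 3 (202 and 1481). With log2 Xist as a covariate the median log2 fold change over the 43 members was 3.18 in WT, 0.69 in TASTPM and 1.87 between the Control ST groups, against 2.95, 1.33 and 1.32 without it. The part of Xist or sex in the number of members seen was not tested.

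**Figure D5:**
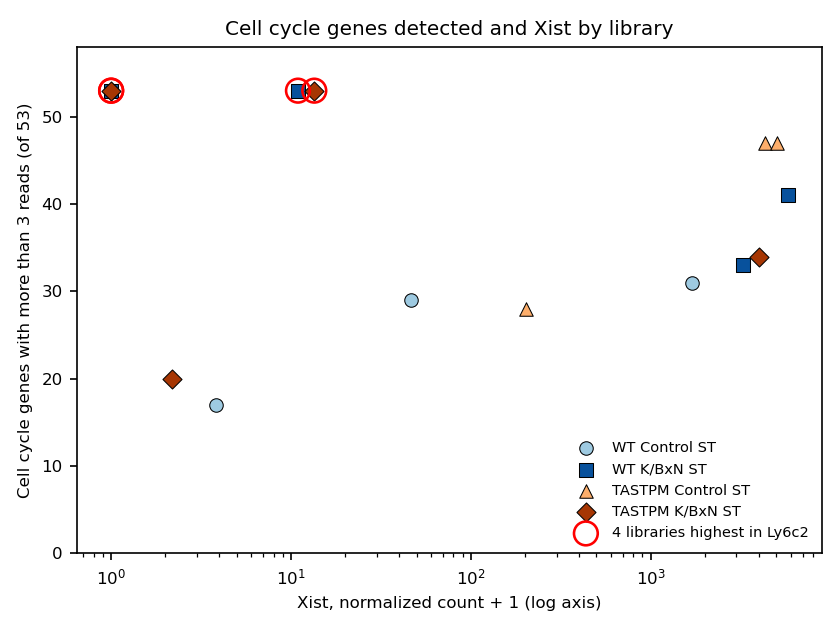
Number of the 53 members with more than 3 reads (y axis) against the normalized count of Xist (x axis, log scale with 1 added), 1 point per library and 1 colour per group. Of the 10 Ly6c2-low libraries, the 6 at the right hold 31 to 47 members and the 4 further left 17 to 29, and the 4 Ly6c2-high libraries all lie at the left with 53.

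Other genes of the cycle, from lists of 29 further S phase genes, 32 further G2 and M genes (30 measured) and 29 regulators, showed the pattern in smaller shares. The 4 highest libraries were the Ly6c2-high ones for 6 of 29, 18 of 30 and 6 of 29 genes (background 8.56%). The median log2 ratio between the 4 libraries and the other 10 was 1.47, 2.32 and 0.59. In WT, limma without the filter gave 5, 9 and 2 genes higher (background 5.01%) and 0, 0 and 1 lower (background 2.21%) at an unadjusted p below 0.05, and in TASTPM 1, 4 and 0 higher (background 2.72%) and 0 lower (background 1.57%). The 4 WT K/BxN ST libraries all lay above the 3 controls for 1, 9 and 2 genes (background 3.75%) and all lay below them for 0, 0 and 2 (Rb1 and Lin9, background 3.39%), and the 4 TASTPM K/BxN ST libraries for 1, 2 and 1 (background 2.61%). DESeq2 without the filter called Cdc6 of the S phase list and Spc25, Ndc80, Nuf2 and Cdca2 of the G2 and M list higher in WT (background 1.82%), and Nek2 in TASTPM (background 0.586%). The limma log2 fold change in WT was 6.95 (standard error 1.83, adjusted p = 0.438) for Spc25, a kinetochore subunit, and 6.47 (standard error 1.76, adjusted p = 0.467) for Cdca2, which recruits a phosphatase to mitotic chromosomes. In TASTPM it was 2.15 (standard error 0.74, adjusted p = 0.964) for Cbx5, a heterochromatin protein, and 0.84 (standard error 0.27, adjusted p = 0.964) for Hjurp, the chaperone that loads Cenpa, and in these 2 genes K/BxN ST did not overlap Control ST in either genotype.

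The 29 regulators had smaller fold changes as a list, though not each of them did. In limma without the filter their median log2 fold change was 0.17 in WT and 0.32 in TASTPM, against 3.64 and 1.49 over the 53 members. Ccnd1, cyclin D1, which couples growth signals to the cycle, had log2 fold changes of -0.56 (standard error 0.54, adjusted p = 0.813) in WT and -0.71 (standard error 0.54, adjusted p = 0.964) in TASTPM, and Cdk4, its kinase, -0.13 (standard error 0.33, adjusted p = 0.931) and 0.23 (standard error 0.33, adjusted p = 0.966). Cdkn1a and Cdkn1b, inhibitors of the cyclin-dependent kinases, gave 0.43 (standard error 0.73, adjusted p = 0.897) and 0.17 (standard error 0.47, adjusted p = 0.939) in WT. E2f1, an activator of S phase genes, gave 1.07 (standard error 1.64, adjusted p = 0.885) in WT and 0.75 (standard error 1.64, adjusted p = 0.972) in TASTPM. Foxm1, the factor of mitotic genes, was below the filter. It had 0, 0 and 4.78 normalized counts in WT Control ST libraries and 197, 139.9, 9.56 and 0 in WT K/BxN ST libraries. For TASTPM, the Control ST libraries had 53.3, 5.55 and 0 and the K/BxN ST libraries 347, 98.9, 0 and 25.9. Like the genes of mitosis it was highest in the 4 Ly6c2-high libraries.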

How the data were processed

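The authors aligned reads of SMART-Seq cDNA with HISAT2 2.1 to GRCm39, counted them per gene with featureCounts 1.5.2 and deposited a normalized signal, the reads of a gene divided by 1 factor per library. 100% of the deposited values were whole multiples of the value of 1 read within 0.01, so whole reads were recovered (14223015 to 20239175 per library). Of 14336 entries, 7 that repeated an identifier with the same values were left out. Libraries were grouped by the names above their columns, which match the labels. The replicate numbers of TASTPM K/BxN ST are those of the labels, and in the other groups they follow the order of the columns.

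log2(normalized count + 1) was fitted with limma 3.58.1 in R 4.3.3 (trend in the prior variance) over the 4 groups for the 12645 genes that had 10 or more reads in 7 or more libraries. A quasi-likelihood test had been named as the usual test for counts, but the deposited unit is a signal, so edgeR 4.0.16 and DESeq2 1.42.0 were alternatives on the recovered reads. Adjusted p values are Benjamini-Hochberg over all genes tested, and fold changes on this log scale understate the change of low genes. The exact permutation tests compare mean log2 values of 2 groups, two-sided. Scripts were tested on simulated data.

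The members, their roles and the lists of other cell cycle genes and cell type markers were chosen with earlier results of these data known. Named with values are the 3 highest and 3 lowest fold changes among the tested members in each comparison, members always named for their role, the 2 smallest p values of the other cell cycle genes per serum comparison, and 6 regulators. Genes given beyond this rule were chosen after their values were seen. The alternatives were other scalings, pseudocounts of 0.5 and 10, other filters, the 2 groups alone, covariates (Ly6c2, monocyte markers, Xist) and leaving out each library.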

Additional observations from a re-analysis of the deposited data

Results flagged for a closer look

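In 108 groups of 4 libraries (the 53 members and their sum, in either K/BxN ST group), 3 held a library far from the other 3 by Dixon's criterion, where chance gives about 1 in 20. In WT K/BxN ST library 1 stood apart for Mcm7, a helicase subunit, at 985 normalized counts, and for Uhrf1, which keeps DNA methylation in place at replication, at 648. In TASTPM K/BxN ST library 1 stood apart for Ccne1, cyclin E1, at 427. Each of these libraries held the most Ly6c2 of its group, and the part of Ly6c2-bearing cells in these values was not tested.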

How the results depend on the processing

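No paired analysis was possible because the labels give the groups no shared replicate numbers. limma called 0 members in all 5 comparisons under every scaling, pseudocount, filter, covariate and left-out library, and edgeR, run with the main filter, called 0 as well. DESeq2 called 7 (same filter) and 10 (no filter) in WT, and without the filter 2 between the Control ST groups and 1 in the interaction, each resting on TASTPM Control ST 1.

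The numbers of members at an unadjusted p below 0.05 are of 43, or of 53 where no filter was used or it was 10 reads in 3 libraries, and the share of all genes in the same direction follows in parentheses. In WT 16 were higher (4.77%), and 10 with a pseudocount of 10 (4.33%), 27 in DESeq2 without the filter (7.54%), 1 with the Ly6c2 (3.79%) or the monocyte marker covariate (3.84%), with 1 lower with Ly6c2 (2.96%), and 3 without the 4 Ly6c2-high libraries (2.4%). The median log2 fold change in WT was 2.95, and -0.040 and 0.18 with these covariates. In TASTPM 6 were higher (2.62%), and 10 and 11 in DESeq2 with (3.93%) and without the filter (5.19%), 1 with Ly6c2 (2.42%), monocyte markers (2.51%) or Xist (1.46%), with 5 lower with Ly6c2 (2.38%) and 2 with monocyte markers (2.21%), and 0, with 3 lower (2.2%), without the 4 libraries.

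Between the Control ST groups 2 were higher (3.41%), and 1 with recomputed size factors (3.35%), with no filter or with a filter of 10 reads in 3 libraries (3.34% each), 0 with a pseudocount of 10 (3.28%), 4 in edgeR (2.73%) or with the 2 groups alone (2.64%), 7 and 10 in DESeq2 with (3.35%) and without the filter (4.11%), 5 with Ly6c2 (4.54%), 6 with monocyte markers (4.63%) and 5 without the 4 libraries (3.36%). Between the K/BxN ST groups 2 were higher (1.0%), and 0 in edgeR (0.783%) or without the 4 libraries (1.69%), where 3 were lower (2.25%), and 1 in DESeq2 without the filter (1.15%), with the 2 groups alone (1.29%) or with Xist (1.08%), and 1 was lower with Ly6c2 (1.49%) or monocyte markers (1.56%). In the interaction 1 was lower (1.63%), and 2 with a pseudocount of 0.5 (1.66%), 0 with one of 10 (1.5%), 3 and 6 in DESeq2 with (1.77%) and without the filter (2.33%), 3 with Ly6c2 (2.41%), monocyte markers (2.44%) or Xist (1.42%) and 5 without the 4 libraries (2.14%), and 1 was higher with Ly6c2 (2.03%) or monocyte markers (2.05%).

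As a mean log2 over the members in place of a sum, the ratio to the control median was 0.816 in WT Control ST, 17.5 in WT K/BxN ST, 2.76 in TASTPM Control ST and 26.7 in TASTPM K/BxN ST, against 0.979, 3.17, 1.14 and 4.47.

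With 1 library left out, the number of members called stayed at 0. The number higher ranged from 4 to 17 in WT, from 1 to 13 in TASTPM, from 0 to 6 between the Control ST groups (0 without TASTPM 1, TASTPM 2 or WT 1, and 6 without TASTPM 3), from 0 to 2 between the K/BxN ST groups (0 without TASTPM 1 or 2 or WT 2, 3 or 4) and from 0 to 2 in the interaction, and the number lower from 0 to 0 in WT, TASTPM and Control ST, from 0 to 1 between the K/BxN ST groups and from 0 to 2 in the interaction. The median log2 fold change ranged from 1.73 to 3.87 in WT, from 0.42 to 2.05 in TASTPM, from -2.84 to -0.41 in the interaction, from 0.43 to 2.18 between the Control ST groups and from -0.94 to 1.06 between the K/BxN ST groups.

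Some named genes changed sign. In WT Mcm4 was at 0.033 with library totals and 0.030 with Xist, 0.20 in edgeR and 0.18 in DESeq2 (with or without the filter). In TASTPM Cdc20 was at -0.41 with Ly6c2 and -0.024 with monocyte markers, Cenpa at 1.49 in edgeR and 1.49 and 1.48 in DESeq2, Gins2 at 1.00 in all 3 of these fits, and Cks1b at 0.54 with a pseudocount of 10, 2.45 in edgeR and 2.44 in DESeq2. Between the K/BxN ST groups Rrm2 was at 1.09 in edgeR and 1.10 in DESeq2 and Mcm5 at 0.37 in all 3. With 1 library left out, the ranges that crossed 0 were -0.63 to 0.16 (Tyms), -0.39 to 0.033 (Mcm3) and -0.45 to 0.25 (Mcm4) in WT, -2.17 to 0.51 (Gins2) and -1.62 to 1.89 (Cks1b) in TASTPM, and -0.34 to 3.15 (Cdc20) and -3.08 to 0.27 (Mcm5) between the K/BxN ST groups. The cause was not tested in any of these. The median of the interaction was -1.93 in limma, -0.29 in edgeR and -0.28 in DESeq2.

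Few reads stand behind most mitotic members in the 10 Ly6c2-low libraries. The number of members over 3 reads was 17 in WT Control ST 1 (19357079 reads) and 41 in WT K/BxN ST 3 (14223015 reads).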
